A study of Mus musculus with 60 samples.

Results

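A set of 34 lysosomal genes was followed through the cortex of inbred mice given fluoxetine or plain water. They were named in a list: 17 soluble hydrolases and their activator protein, 4 membrane proteins, the regulators Tfeb and Grn, and 11 subunits or accessory proteins of the vacuolar proton pump (V-ATPase). Each gene was represented by its brightest probe set paired with that symbol alone, and was kept if its log2 intensity reached 4 in at least 6 of the 60 arrays. In all, 33 of the 34 genes were measured, among 18193 genes on the array of which 11886 were tested. Atp6v0c, a subunit of the membrane ring of the pump, was not analysed here, because no probe set was paired with it alone. No measured gene lay near the filter, since the lowest value of any of them on any array was 6.17 for Gusb.

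The fluoxetine group consisted of male mice of 30 inbred strains, 10 to 11 weeks old, that received 18 mg/kg of fluoxetine per day by mouth for 21 days. The water group consisted of males of the same 30 strains and age at 0 mg/kg. Fluoxetine is a selective inhibitor of the serotonin transporter used against depression. Each array carried cortical RNA pooled from 3 mice of 1 strain and 1 treatment, so each strain gave 1 fluoxetine and 1 water array, and p-values rest on the spread of the within-strain differences over strains, which mixes strain-specific response, differences between pools and technical spread.

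Lysosomes break down proteins, lipids and sugars with hydrolases that work at acidic pH. The V-ATPase makes them acidic: its cytosolic V1 part splits ATP and its membrane V0 part carries protons into the lumen. Tfeb is a transcription factor that activates many lysosomal genes through a DNA element built on the letters CACGTG, and fluoxetine is a cationic amphiphilic drug, a class known to accumulate in acidic compartments.

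The tissue carried the neuronal markers of cortex, with Snap25 at 15.5, 15.7 and 15.8 and Gad1 at 13.7, 13.98 and 14.2 log2 units (lowest, median and highest of 60 arrays). Slc17a7, the vesicular glutamate transporter of cortical neurons, varied more widely, with 10.6, 12.4 and 13.6. The choroid plexus gene Ttr ran between 4.25 and 15.1. The fluoxetine arrays of P/J, DBA/2J and C58/J stood apart, with median correlations of 0.970, 0.975 and 0.976 with the other arrays against 0.978 for the next. Where leaving these 3 strains out moved a difference of at least 0.01 or a marker correlation by over 1.5 times, the value without them is given too. In bulk RNA, fewer cells of a type and less RNA per cell cannot be told apart. No source used here gave a scan date or another array batch.

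No lysosomal gene passed the test of fluoxetine against water. Of the 33 genes, 0 passed the limma test at an adjusted p of 0.05, a threshold that 0.0589% of all genes tested passed. At an unadjusted p under 0.05, 8 of the 33 (24.2%) passed, all of them higher with fluoxetine, while 7.30% of all genes tested were higher at that level; over all genes, 868 were higher and 951 lower. These 8 were Atp6v1a, Gusb, Atp6v1b2, Man2b1, Lipa, Hexa, Ctsd and Ctss. Without the 3 strains that stood apart, 2 of the 33 were left, Atp6v1a and Gusb. The share of all genes at that level was not computed for this fit, so the 2 cannot be set against a background. The difference was above 0 in 24 of the 33 genes (72.7%), against 46.9% of all genes tested, with a median of 0.014 against -0.0029. Without the 3 strains it was above 0 in 21 of the 33. For all genes tested the median was then -0.0019, and the share above 0 was not computed.

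Gusb is β-glucuronidase, which trims glucuronic acid from glycosaminoglycans. Its log2 intensity was 6.57, 7.02 and 7.69 (lowest, median, highest) in the fluoxetine arrays, against 6.17, 6.96 and 7.49 in the water arrays. The groups overlapped over almost their whole range. The within-strain difference was 0.14 ± 0.053 (SE, n = 30 strains), or 10.4%, and 21 of 30 strains were higher, with a limma adjusted p of 0.180. Single strains ran between -0.58 in MA/MyJ and 0.71 in RIIIS/J. The difference was 0.11 without the 3 strains that stood apart, with an unadjusted p of 0.0474 and an adjusted p of 0.597 from limma. A second probe set for Gusb gave a difference of -0.0090, and its strain means correlated with the first at r = 0.064 over 30 strains.

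Man2b1 is the lysosomal α-mannosidase that removes mannose from glycoproteins. It had 8.37, 9.17 and 10.16 log2 units in the fluoxetine arrays, against 8.34, 9.14 and 9.89 in the water arrays, and the groups overlapped. Its difference was 0.10 ± 0.038 (SE, n = 30), higher in 17 strains, with a limma adjusted p of 0.183. The difference was largest in DBA/2J, at 0.69. It was 0.06 without the 3 strains, with a limma adjusted p of 0.647. A dimmer second probe set gave -0.04.

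Lipa, the acid lipase that hydrolyses cholesteryl esters and triglycerides, had 7.49, 8.26 and 9.08 in the fluoxetine arrays, against 7.74, 8.16 and 8.96 in the water arrays. The groups overlapped, the difference was 0.12 ± 0.045 (SE, n = 30), 21 strains were higher, and the limma adjusted p was 0.204. P/J had the largest difference, 0.82, and DBA/2J the next, 0.58, and with both and C58/J left out the difference of Lipa was 0.07 (limma adjusted p 0.650). Hexa, the α subunit of β-hexosaminidase that acts on GM2 ganglioside, had 10.56, 10.83 and 11.35 in the fluoxetine arrays, against 10.57, 10.75 and 11.02 in the water arrays. The highest fluoxetine arrays, those of P/J and DBA/2J, lay above every water array. Its difference was 0.07 ± 0.028 (SE, n = 30), higher in 19 strains, with a limma adjusted p of 0.206, and 0.04 without the 3 strains.

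Among the other hydrolases, the aspartic protease cathepsin D (Ctsd) and the cysteine proteases cathepsin S (Ctss) and cathepsin Z (Ctsz) each had a difference of 0.07, with limma adjusted p between 0.246 and 0.332. All 3 were highest in P/J, at 0.50 for Ctsd, 0.62 for Ctss and 0.62 for Ctsz. Without the 3 strains, the differences were 0.03 for Ctsd, 0.03 for Ctss and 0.02 for Ctsz. Neu1, the sialidase, ran the other way at -0.05, lower in 17 strains, with a limma adjusted p of 0.335. A second Neu1 probe set, dim at a mean of 4.03, gave -0.17 and was lower in 23 strains. The palmitoyl thioesterase Ppt1 had -0.03, the tripeptidyl peptidase Tpp1 0.03, cathepsin B (Ctsb) 0.02, β-galactosidase (Glb1) -0.03 and cathepsin F (Ctsf) 0.01. Ppt1 and Glb1 both had -0.014 when the 3 strains were left out. The α-galactosidase Gla had the widest spread of all 33 genes, with -0.83 in NZW/LacJ and 1.46 in P/J around a mean of -0.02, which was -0.07 without the 3 strains. Cathepsin L (Ctsl), the saposin precursor Psap and the protective protein Ctsa differed by less than 0.01 in either direction. In all, 11 of the 17 hydrolases had a difference above 0, with a median of 0.016.

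Atp6v1a, the catalytic A subunit of V1 that binds ATP, had the smallest p of the 33 genes. Its log2 intensity was 13.14, 13.39 and 13.77 in the fluoxetine arrays, against 13.10, 13.32 and 13.51 in the water arrays. The groups overlapped except at the top, where arrays of DBA/2J, P/J and others exceeded every water array. The difference was 0.09 ± 0.023 (SE, n = 30), or 6.18%, with 23 of 30 strains higher and a limma adjusted p of 0.0862. It ran between -0.14 in BUB/BnJ and 0.40 in DBA/2J. It was 0.06 without the 3 strains, with an unadjusted p of 0.0054 and an adjusted p of 0.347 from limma. A second probe set for Atp6v1a gave 0.06.

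Atp6v1b2 encodes the brain form of the B subunit, which alternates with A in the V1 head. It had 13.38, 13.56 and 13.84 in the fluoxetine arrays, against 13.34, 13.47 and 13.76 in the water arrays, and the groups overlapped. Its difference was 0.06 ± 0.022 (SE, n = 30), higher in 23 strains, with a limma adjusted p of 0.180. It was 0.04 when those strains were left out. A second probe set gave 0.07, although its strain means did not follow the first (r = -0.0048 over 30 strains).

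The accessory protein Atp6ap2, also called the prorenin receptor, had 14.60, 14.78 and 15.05 in the fluoxetine arrays, against 14.68, 14.76 and 14.86 in the water arrays. The fluoxetine arrays spread beyond the water arrays at both ends. Its difference was 0.02 ± 0.017 (SE, n = 30), higher in 17 strains, with a limma adjusted p of 0.575. The largest differences of Atp6ap2 were 0.30 in P/J and 0.21 in C58/J, and its mean was 0.0036 without the 3 strains. Over all strains, further Atp6ap2 probe sets gave 0.033 and 0.045. Atp6v1e1, the E subunit of the peripheral stalk, had 13.42, 13.61 and 13.83 in the fluoxetine arrays, against 13.43, 13.61 and 13.79 in the water arrays, and the groups overlapped. Its difference was 0.02 ± 0.017 (SE, n = 30), with a limma adjusted p of 0.628, and 0.0066 without the 3 strains. The V0 subunits Atp6v0a1 and Atp6v0d1 had differences of 0.02 and 0.01 (0.0070 for Atp6v0a1 without the 3 strains), and Atp6v1d, Atp6v1h, Atp6v1c1 and Atp6ap1 each differed by less than 0.01. A dimmer second probe set for Atp6v1h gave -0.07. Of the 10 pump genes, 9 had a difference above 0, with a median of 0.016. When the 3 strains were left out, 8 did, with a median of 0.0051.

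**Figure D1:**
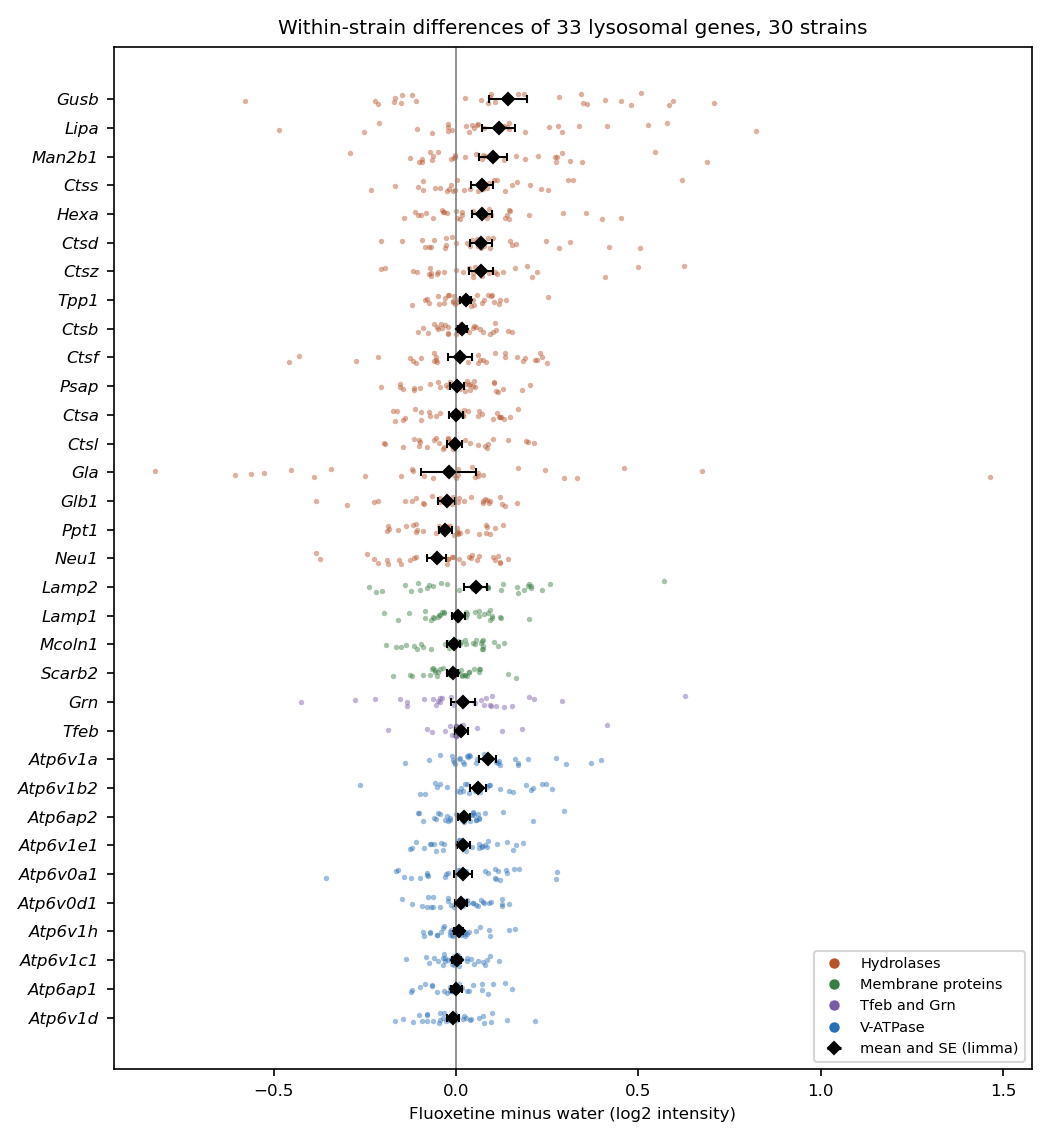
Within-strain difference, fluoxetine minus water (log2 intensity, horizontal axis), for each of 33 lysosomal genes, with 1 point per strain and a diamond with bars for the limma mean and its SE. The means lie between -0.05 (Neu1) and 0.14 (Gusb), and the points of each gene fall on both sides of 0.

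**Figure D2:**
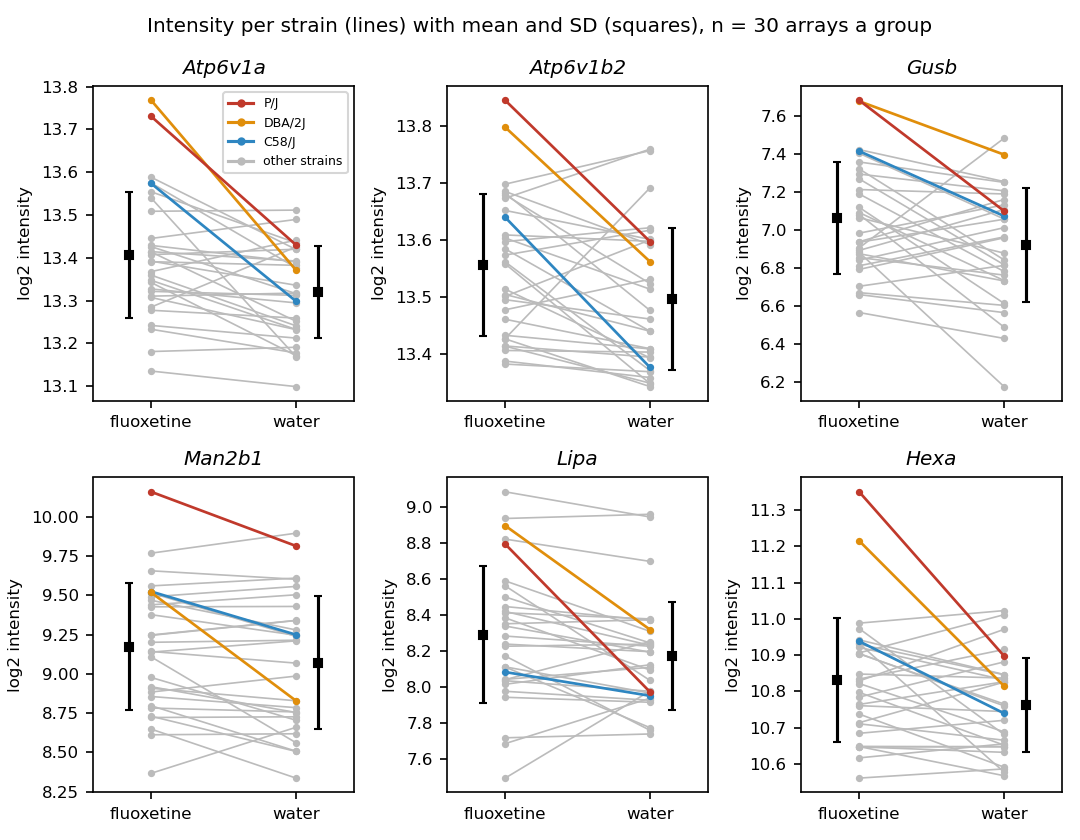
Log2 intensity of 6 genes in the fluoxetine and water arrays, with 1 line per strain and squares with bars for the mean and SD of 30 arrays. The lines of P/J, DBA/2J and C58/J are coloured. The groups overlap in every panel, and 23 of 30 strains were higher with fluoxetine for Atp6v1a.

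None of the 4 membrane proteins passed the test, and 2 of them had a difference above 0 (median -0.00070). Lamp2, a heavily glycosylated protein of the lysosomal membrane that also serves chaperone-mediated autophagy, had 10.85, 11.09 and 11.36 in the fluoxetine arrays, against 10.73, 11.03 and 11.32 in the water arrays. The groups overlapped, and its difference was 0.05 ± 0.032 (SE, n = 30), with 0.57 in C58/J and a limma adjusted p of 0.440, and 0.03 without the 3 strains. Lamp1, its close relative, had 11.73, 12.07 and 12.22 in the fluoxetine arrays, against 11.77, 12.06 and 12.27 in the water arrays, and a difference of 0.0052 ± 0.018 (SE, n = 30; limma adjusted p 0.929). The groups overlapped for Lamp1 as well.

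Scarb2, which carries β-glucocerebrosidase to the lysosome, had 11.76, 11.96 and 12.27 in the fluoxetine arrays, against 11.77, 11.96 and 12.43 in the water arrays. Its difference was -0.0099 ± 0.015 (SE, n = 30; limma adjusted p 0.815), or -0.016 without the 3 strains, whereas a second probe set gave 0.07 with 22 strains higher. Mcoln1, a calcium channel of the lysosomal membrane, had 10.22, 10.54 and 10.75 in the fluoxetine arrays, against 10.17, 10.53 and 10.76 in the water arrays. Its difference was -0.0066 ± 0.017 (SE, n = 30; limma adjusted p 0.907). Dimmer further Mcoln1 probe sets gave -0.02 and -0.08, the latter lower in 20 strains. The groups overlapped for both genes.

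Grn encodes progranulin, a secreted protein that reaches lysosomes and is needed for their function. It had 11.11, 11.32 and 11.91 in the fluoxetine arrays, against 11.06, 11.33 and 11.71 in the water arrays, and the groups overlapped. The difference was 0.02 ± 0.034 (SE, n = 30), with -0.43 in FVB/NJ, 0.63 in P/J and a limma adjusted p of 0.853. It was -0.02 without the 3 strains. Tfeb had 7.36, 7.37 and 7.70 in the fluoxetine arrays, against 7.28, 7.37 and 7.66 in the water arrays, with a difference of 0.01 ± 0.018 (SE, n = 30; limma adjusted p 0.783). Its level was not resolved, because 42 of the 60 arrays lay within 0.005 of 7.37.

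Most of the genes differed between strains, each measured by 1 probe set. Other probe sets of the same gene did not always order the strains alike. Over 37 further probe sets of 22 genes, the median correlation of strain means with the probe set used was 0.554, and 6 were below 0. In the comparison of strains, 30 of the 33 genes passed the limma F-test at an adjusted p of 0.05, as did 88.3% of all genes tested. The exceptions were Lamp2 (adjusted p 0.0831), Grn (0.0555) and Tfeb (0.640). Leaving out the 3 strains that stood apart gave 32 of the 33, beside 10646 of all 11886 genes tested. Lamp2 (adjusted p 0.0237) and Grn (0.0446) were then past the threshold of the limma F-test. The median range of strain means was 0.846 log2 units for the hydrolases (0.404 to 1.502), 0.520 for the membrane proteins and 0.369 for the pump genes (0.249 to 0.691), against 0.681 for all genes tested. Brighter genes had narrower ranges: the 1243 tested genes with a water mean of 12 to 15 had a median range of 0.418, and the 8355 genes with a water mean of 7 to 12 had 0.653.

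Tpp1, which cuts tripeptides from the ends of proteins and is lost in a childhood form of neuronal ceroid lipofuscinosis, differed most clearly between strains (F = 25.6, limma adjusted p 1.27e-13). Its strain mean was 11.15 in NZB/BlNJ, against 10.22 in SM/J, a 1.91-fold range. The strain means had a gap, with SM/J at 10.22 in both arrays, SWR/J at 10.28 and 10.18 and NOD/LtJ at 10.32 and 10.28 (fluoxetine and water arrays). The other 27 strains lay between 10.86 and 11.15. The same 3 strains were lowest on a second Tpp1 probe set, by a step of 0.30 log2 units.

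Ppt1, another enzyme whose loss causes neuronal ceroid lipofuscinosis, had a strain mean of 11.63 in I/LnJ, against 10.79 in C57BL/6J, 1.80-fold (F = 16.7). Further Ppt1 probe sets above the filter correlated with it at r = 0.554, 0.353 and -0.028, and the first of these also had I/LnJ highest. Man2b1 had 9.99 in P/J, against 8.49 in SM/J, 2.81-fold (F = 15.1). Its dimmer second probe set correlated with the first (r = 0.797 over 30 strains) and also had SM/J lowest, but had NZB/BlNJ highest. Ctss, which microglia express strongly, had 12.99 in P/J, against 11.49 in BTBRT T(+) tf/J, 2.83-fold (F = 13.2). The P/J value of Ctss came from a fluoxetine array at 13.30 and a water array at 12.68, and that water array was still the highest of the water group. Neu1 stood out in 1 strain: NZW/LacJ had 9.62 and 9.56 in its fluoxetine and water arrays, against 9.17 and 9.19 in the next strain, AKR/J.

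Of the pump genes, Atp6v1d, the D subunit of the central rotor, varied most between strains, with 13.65 in I/LnJ, against 12.96 in CE/J, 1.61-fold (F = 18.1). Further Atp6v1d probe sets correlated with the one used at r = 0.828 and 0.712 over strain means. The former also had CE/J lowest, but had LP/J highest. The latter had AKR/J lowest and 129S1/SvImJ highest. Its range was 0.290 log2 units, against 0.691 for the probe set used. Atp6v1h, a regulatory subunit, had 12.49 in NOD/LtJ, against 12.11 in A/J (F = 7.56). A dimmer second Atp6v1h probe set correlated with it at r = 0.402 and had SWR/J highest and BTBRT T(+) tf/J lowest. Atp6v1c1, which joins the stalks to the membrane part, had 14.48 in LG/J, against 14.06 in NZB/BlNJ (F = 7.52). Further Atp6v1c1 probe sets correlated with it at r = 0.389 and 0.130 and had other strains at both ends. Atp6v0d1, which couples rotor and membrane ring, had 13.27 in LG/J, against 12.93 in 129S1/SvImJ (F = 3.43).

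Among membrane proteins and regulators, Scarb2 had the largest F (15.4), with 12.34 in C57BR/cdJ, against 11.78 in SM/J. Its second probe set correlated with it at r = 0.835, but had SWR/J highest and C3H/HeJ lowest. Mcoln1 had 10.72 in LP/J, against 10.20 in 129S1/SvImJ, and Lamp1 had 12.19 in CE/J, against 11.75 in SM/J. Lamp2 had 11.34 in BALB/cJ, against 10.83 in LP/J. Further Lamp2 probe sets correlated with it at r = 0.600, 0.293 and -0.100, and the last had 129S1/SvImJ highest. Grn had 11.66 in C58/J, against 11.16 in NZB/BlNJ. Its C58/J value came from a fluoxetine array at 11.80 and a water array at 11.51, below the highest water array at 11.71. Further Grn probe sets (r = 0.689 and 0.494) had P/J highest and NZW/LacJ lowest. The ends of the order were shared by a few strains. LG/J and P/J each had the highest mean of 8 of the 33 genes. 129S1/SvImJ had the lowest of 9, and SM/J the lowest of 7. The P/J means include its fluoxetine array, which stood apart. Among water arrays P/J was highest for Ctsa, Ctsd and Ctss. It was below the highest water array for Ctsz (11.52 against 11.61), Hexa (10.90 against 11.02) and Man2b1 (9.81 against 9.89). The same held for Atp6v1a (13.43 against 13.51) and Atp6ap2 (14.75 against 14.86).

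**Figure D3:**
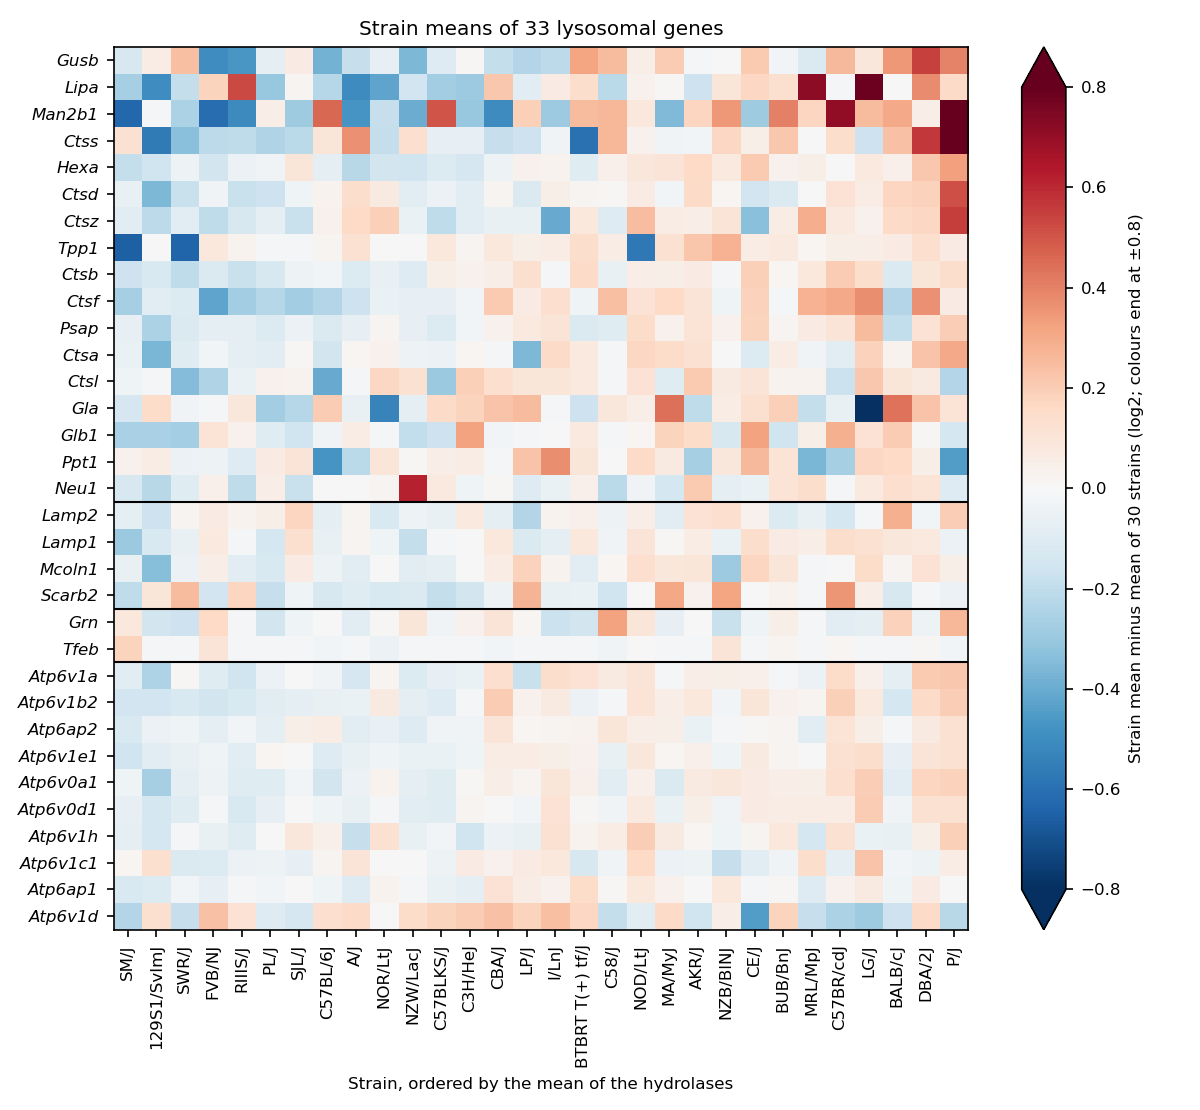
Strain means of 33 lysosomal genes (rows) in 30 strains (columns, ordered by the mean of the hydrolases), as the difference from the mean over strains in log2 units; red is higher and blue lower. Tpp1 is blue most strongly in SM/J, SWR/J and NOD/LtJ, Neu1 is red in NZW/LacJ, and the rows of the pump are paler than those of the hydrolases.

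Most of the pump genes, but not all, correlated positively with one another over strain means. The median Pearson correlation between strain means was 0.511 for the 45 pairs of pump genes, 0.200 for the 136 pairs of hydrolases and 0.303 for the 170 pairs of a hydrolase with a pump gene, against about 0.045 for all pairs of genes tested (n = 30 strains). All genes shared the same arrays, so these are descriptions without a test. They also rest on 1 probe set per gene. Further probe sets of pump genes correlated with the one used at r between -0.129 (Atp6v1e1) and 0.917 (Atp6ap2). The closest pair was Atp6v0a1 with Atp6v0d1, the V0 subunits, at 0.877. Of the pairs of pump genes 75.6% had a positive correlation. Atp6v1d was negative with 8 of the other 9, with values between -0.292 and 0.097, and Atp6v1c1 was negative with 4 of 9 and reached at most 0.327. Psap ranged between 0.864 with Atp6v0a1 and -0.323 with Atp6v1d, and exceeded 0.8 with 4 of the 10 pump genes. The within-strain differences showed the same order, with medians of 0.382 for pairs of pump genes and 0.182 for pairs of hydrolases, against about 0.015 for all genes, and 0.879 for Atp6v0a1 with Atp6v0d1.

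**Figure D4:**
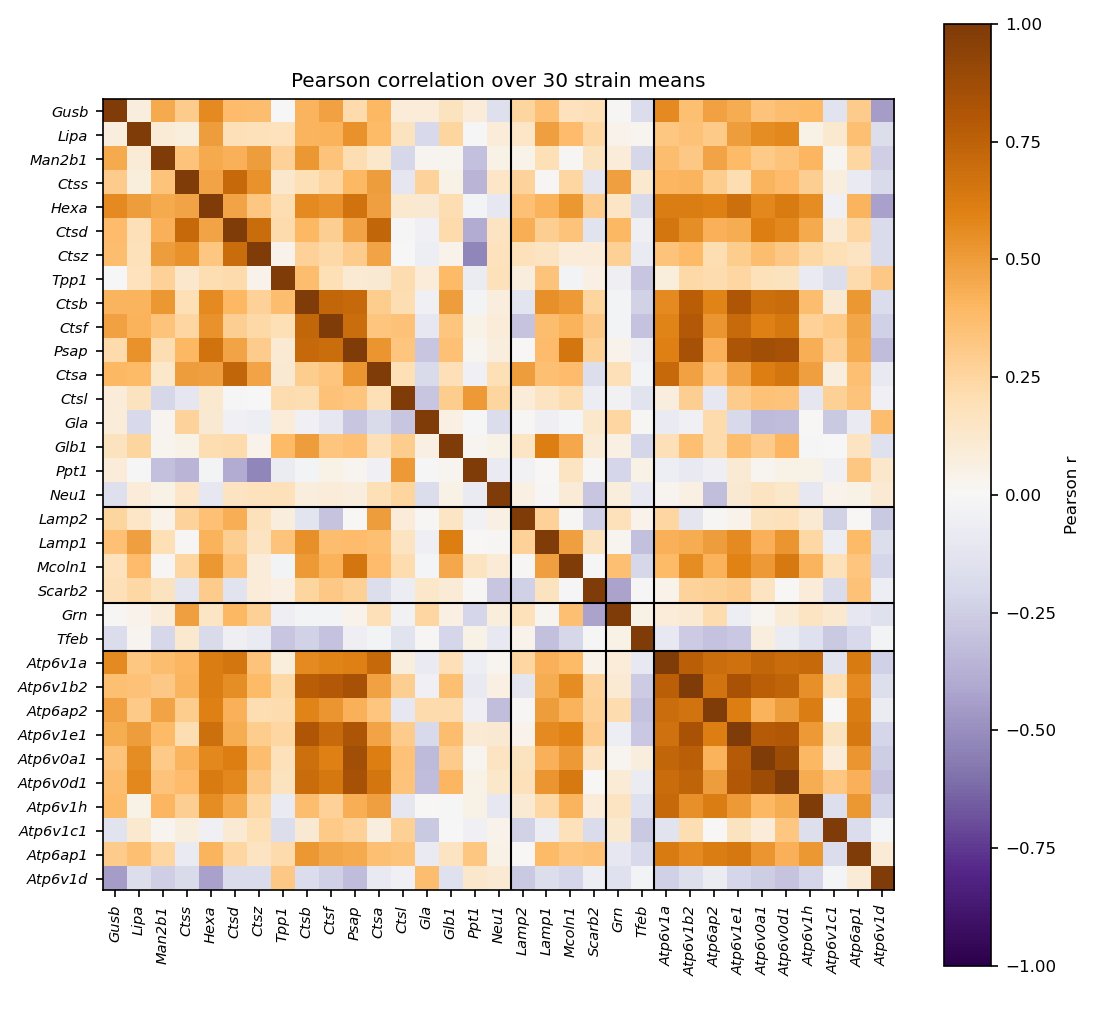
Pearson correlation of strain means between each pair of the 33 lysosomal genes over 30 strains, with lines between hydrolases, membrane proteins, Tfeb with Grn, and the V-ATPase. The block of V-ATPase genes is darkest (median 0.511), apart from Atp6v1c1 and Atp6v1d.

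Averaged over the 17 hydrolases, the difference was 0.033 ± 0.078 (SD over 30 strains), above 0 in 18 strains, and 0.016 over the 27 strains without those that stood apart. It was highest in P/J at 0.236 and lowest in MRL/MpJ at -0.088. Averaged over the 10 pump genes it was 0.022 ± 0.062 (SD, n = 30), above 0 in 19 strains, and 0.012 over those 27. It was 0.159 in DBA/2J, where 10 of 10 genes were higher, and -0.133 in BUB/BnJ, where 0 of 10 were. Averaged over the membrane proteins the difference was above 0 in 15 strains and below in 15.

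Markers of microglia were followed beside the hydrolases. Of 11 microglial markers measured, 9 had a difference above 0, with a median of 0.038 and 0 past the adjusted threshold. The complement genes C1qb, C1qa and C1qc had 0.15, 0.12 and 0.12, of which C1qa had an unadjusted p of 0.0208 (limma adjusted p 0.227), while Cx3cr1 and Csf1r had 0.00084 and -0.0035. The mean level of the list was 8.26, 8.78 and 9.57 (lowest, median, highest) in the fluoxetine arrays, against 8.18, 8.75 and 9.02 in the water arrays. The lowest value of any of these markers on any array was 4.65 for Itgam, above the array floor of 2.07. The list differed by 0.633 in P/J, 0.547 in DBA/2J and 0.125 in C58/J. Its mean over 30 strains was 0.050, above 0 in 19, and rests in part on these 3 strains. Marker differences without them are not given here, so a rise across the other strains is not shown. Over 30 strains, the mean hydrolase difference correlated with the microglial one (Pearson r = 0.862, Spearman rho = 0.804), with r = 0.758 without P/J and DBA/2J and 0.748 without the 3 strains that stood apart. Both differences came from the same arrays, and the part of microglia in the hydrolase values was not tested.

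Neuronal markers were set beside the pump in the same way. The mean pump difference correlated with that of 10 neuronal markers at r = 0.704 over 30 strains (rho = 0.604), at 0.588 without the 2 strains farthest out and at 0.796 without the 3 that stood apart. Of these markers 7 had a difference above 0, and the level of the list was 13.46, 13.70 and 13.86 in the fluoxetine arrays, against 13.45, 13.69 and 13.82 in the water arrays. With the microglial list, the mean pump difference had r = 0.569, and 0.392 without the 3. The mean hydrolase difference had r = 0.390 with the neuronal list, and 0.528 without the 3. Of all 11886 genes tested, 951 were lower at an unadjusted limma p under 0.05. Of 9 oligodendrocyte markers, 9 were below 0, with a median of -0.22, 8 at that unadjusted level and 0 past the adjusted threshold of limma. The level of that list was 9.50, 10.74 and 11.40 in the fluoxetine arrays, against 10.25, 10.93 and 11.37 in the water arrays, and its difference was lowest in P/J at -0.928. Against this list the mean hydrolase difference had r = -0.382 and the mean pump difference r = -0.257, with -0.218 and -0.177 when the 3 strains were left out. Astrocyte markers gave r = 0.665 with the hydrolases and 0.211 with the pump, and endothelial markers 0.110 and -0.115. Without the 3 strains the astrocyte values were 0.395 with the hydrolases and -0.254 with the pump, whose sign turned, and the endothelial ones 0.395 and 0.0018. The part of these cells in the lysosomal values was not tested.

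**Figure D5:**
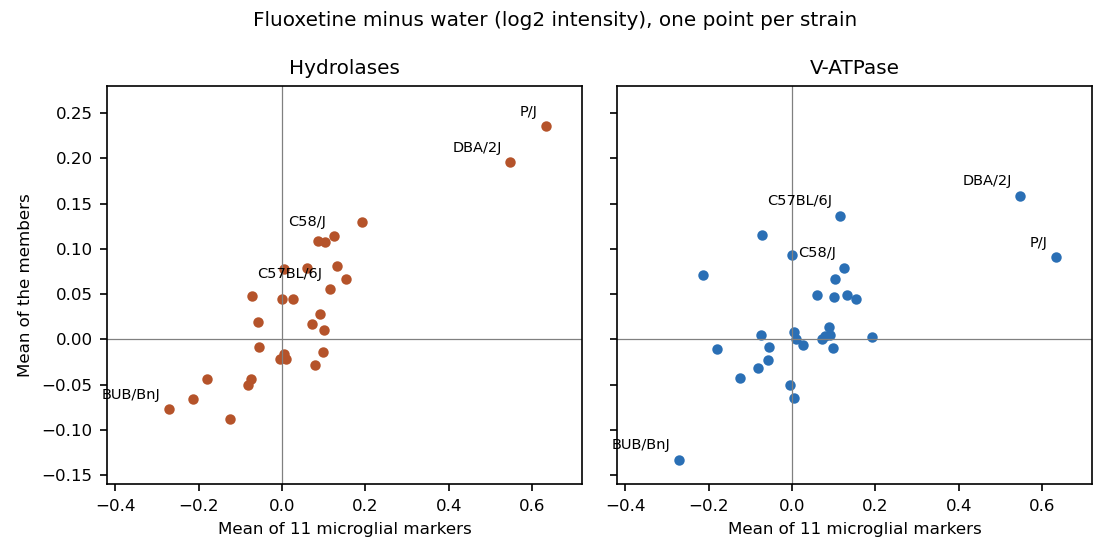
Mean difference, fluoxetine minus water (log2 intensity), of the 17 hydrolases and of the 10 V-ATPase genes (vertical axes) against that of 11 microglial markers (horizontal axis), with 1 point per strain. P/J and DBA/2J lie at the upper right for the hydrolases, and Pearson's r is 0.862 for the hydrolases and 0.569 for the V-ATPase.

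The promoters of the genes were searched for the letters that Tfeb is known to bind, since many lysosomal genes carry them. RefSeq promoter windows (GRCm38.p6, 250 bases before to 50 after an annotated start) were found for 30 of the 34 genes. CACGTG occurred in 10 of the 30 (33.3%), against 11.8% of 9645 genes tested and 8.09% of all 27025 genes. The longer TCACGTGA, which contains CACGTG, occurred in 6 of the 30 (20%), against 2.20% of genes tested and 1.12% of all genes. The full CLEAR palindrome, which extends TCACGTGA by a G before and a C after, occurred in 0 of the 30, against 0.778% of genes tested. Each motif reads the same on both strands, and no match says only that the letters are not in the window. A match is a description of the letters and not a binding site. The 6 windows with TCACGTGA are shown because they are the only ones among the 30 to carry it; they run 5′ to 3′ on the strand of the gene, with the match in capitals.
Ctsa (chr2:164833744-164833783, plus strand): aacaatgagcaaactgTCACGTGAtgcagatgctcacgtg
Ctsd (chr7:142387903-142387942, minus strand): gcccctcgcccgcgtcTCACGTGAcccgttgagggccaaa
Mcoln1 (chr8:3500457-3500496, plus strand): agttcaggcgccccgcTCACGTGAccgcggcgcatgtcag
Atp6v0d1 (chr8:105566045-105566084, minus strand): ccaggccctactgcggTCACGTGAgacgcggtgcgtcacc
Atp6v1a (chr16:44139368-44139407, minus strand): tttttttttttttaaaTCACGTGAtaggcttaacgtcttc
Gla (chrX:134601210-134601249, minus strand): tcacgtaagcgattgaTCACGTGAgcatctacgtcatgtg

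In these windows the match began upstream of the annotated start that the window was built on. The distance was 13 bases in Ctsa, 99 in Ctsd, 46 in Mcoln1, 4 in Atp6v0d1, 132 in Atp6v1a and 228 in Gla. A gene could have more than 1 start, with 32851 windows for 27025 genes. For Ctsa and Atp6v1a that start lay inside the gene, which began at chr2:164832872 (plus strand) and chr16:44139702 (minus strand). Both matches thus lay inside the annotated gene. Of the genes with a window, 5 of the 10 genes with CACGTG had a difference above 0 (median 0.0020), against 15 of the 19 measured genes without it (median 0.020). Gusb, with the largest difference of the 33, was among those without it.

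Further genes of the pathway, from lists, also gave no call. Of 25 further hydrolases measured out of 34 listed, 17 had a difference above 0 and 0 passed the adjusted threshold. At the unadjusted one 4 (16%) were higher and 0 lower, against 7.30% of all genes tested that were higher. The smallest p belonged to the acid α-glucosidase Gaa at 0.05 (limma adjusted p 0.268), the dipeptidyl peptidase Ctsc at 0.14 (0.297) and the sphingomyelinase Smpd1 at 0.06 (0.303). Over all alternative settings, with strains left out among them, the lowest differences were 0.032 for Gaa, 0.051 for Ctsc and 0.029 for Smpd1. Of 19 further membrane and sorting genes, 8 were above 0 and 0 passed. Cd68, a lysosomal membrane protein of macrophages and microglia, had 0.21 (limma adjusted p 0.142), Gnptab, which starts the mannose 6-phosphate tag, had 0.11 (0.177) and Tmem192, another lysosomal membrane protein, had -0.08 (0.197). Over the same settings, the smallest sizes of these differences were 0.124 for Cd68, 0.066 for Gnptab and -0.050 for Tmem192. Of 8 further regulators 3 were above 0, and of 9 further pump genes 7 were, with a smallest limma adjusted p of 0.640 (Lamtor2) and 0.528 (Atp6v1g2).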

How the data were processed

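Cortical RNA was measured on 60 Affymetrix expression arrays, 1 per strain and treatment. Per the submitters' processing notes, the authors used GCRMA, a background correction based on probe sequence with normalization across arrays, to make the deposited linear intensities. No version was stated. Intensities ran from 4.21 to 72333.5 and were transformed to log2 without a pseudocount; 28.5% to 30.1% of probe sets per array lay within 0.01 of the floor of 2.07, below which no level is resolved. The number of arrays limits the precision.

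The arrays held 45101 probe sets, of which 34945 had 1 annotated gene, 932 several and 9160 none, beside 64 controls. The brightest probe set stood for each of 18193 genes, and 11886 genes with log2 intensity of at least 4 in at least 6 arrays were tested with limma 3.58.1 (R 4.3.3; lmFit, eBayes), strain as a block, two-sided, with Benjamini-Hochberg adjustment at 0.05 over all genes. Strains were compared with the F-test of the same fit. Pairing was given by the strain label, and 30 of 30 fluoxetine arrays correlated best with the water array of their own strain. The fits were tested on simulated data. Genes named with full values were the 4 with the smallest treatment p among hydrolases and pump genes, all membrane proteins and regulators, and for strains the 4 largest F. The members and lists were chosen with earlier results of these data known. Promoters and coordinates came from RefSeq (GRCm38.p6). The alternatives left out each strain, the block or the filter, or changed the probe set choice, filter, scaling, pseudocount or variance model.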

Additional observations from a re-analysis of the deposited data

How the results depend on the processing

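The 9 other settings, and 1 chosen after seeing the data that left out P/J, DBA/2J and C58/J, gave 0 lysosomal genes past the adjusted threshold in each case. Without the replicate block, that is without pairing by strain, 1 of the 33 had an unadjusted p under 0.05 and 0 of all genes passed, against 8 and 7 with it. Averaging all probe sets of a gene gave 0 genes in all and dropping the filter gave 1. Without the 3 strains, 2 of the 33 had an unadjusted p under 0.05. Leaving out each strain in turn gave 8 to 10 such genes, 21 to 25 above 0, 29 to 31 past the strain test (30 with all strains, 32 without the 3), and 0 to 21 of all genes past the adjusted threshold (0 without C57BLKS/J or C58/J, 21 without RIIIS/J). Differences near 0 changed sign: Ctsa 0.0012 with arrays centred on their median; Ctsl 0.0017, Gla 0.0096, Psap -0.0040, Scarb2 0.032, Atp6v1h -0.021 and Atp6v0a2 -0.018 with the mean of all probe sets; Atp6v1c1 -0.0032 and Atp6ap1 -0.0045 with quantile normalization; Lamp1 -0.00052, Grn -0.016 and Atp6ap1 -0.0025 without the 3 strains. With single strains left out, Ctsa ran from -0.0071 to 0.0048, Ctsl from -0.012 to 0.0022, Gla from -0.071 to 0.0079, Psap from -0.0048 to 0.0093, Lamp1 from -0.0015 to 0.012, Grn from -0.0025 to 0.034, Atp6v1c1 from -0.0023 to 0.0065 and Atp6ap1 from -0.0046 to 0.0050. The cause of these changes was not tested. Tfeb was not resolved, since 42 of the 60 arrays shared nearly the same value.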
